A study of Homo sapiens with 22 samples.

Results

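The sites described here had called peaks of both BAF subunits in AN3CA cells with the CBR truncation of ARID1A. No peak of either subunit was called there in cells with wild-type ARID1A or with an empty vector. A missing call does not show that a subunit was absent. A site was a SMARCA4 peak of CBR cells on chromosomes 1 to 22 that shared at least 1 bp with a SMARCC1 peak of the same cells. It counted as CBR-only when it met no SMARCA4 or SMARCC1 peak of wild-type cells (WT) or of either empty-vector replicate (Empty). Of 12616 CBR SMARCA4 peaks, 6022 met a CBR SMARCC1 peak and are called CBR BAF sites, and 356 of these (5.91%, Wilson 95% interval 5.34 to 6.54) were CBR-only. The sites were thus chosen by whether SMARCA4 and SMARCC1 peaks were called in CBR, WT and Empty, and nothing about those calls is tested.

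BAF, the canonical mammalian SWI/SNF complex, uses ATP to slide or evict nucleosomes and is known for keeping enhancers accessible. SMARCA4 (BRG1) is its ATPase, SMARCC1 (BAF155) is a scaffold subunit of its core, and ARID1A is a large subunit that marks the canonical form and is often lost in endometrial cancer. H3K27ac, acetylation of lysine 27 of histone H3, is a mark of active promoters and enhancers. A shared SMARCA4 and SMARCC1 peak does not show which form of the complex was there.

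AN3CA is an established human endometrial carcinoma line, and binding was read by CUT&Tag, where a transposase brought in by an antibody cuts out and tags nearby DNA. Cells expressed an empty vector (2 replicates) or 1 of 5 forms of ARID1A with 1 library per antibody: wild type, the CBR truncation, the ARID domain mutant DBDmut, the delIDR1 truncation, and the DDX4 IDR hybrid (IDR, intrinsically disordered region). The antibodies were to SMARCA4, SMARCC1 and H3K27ac, and DDX4 cells also had a library of the HA tag. The labels do not give the residues left in CBR, whether a cell pool or a clone was used, or whether replicates were separate cultures. With 1 CBR library per antibody, no difference between CBR and another construct has a replicate check on the CBR side, and no test between constructs was made.

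Data came as 1 peak list per library in hg19 coordinates. On chromosomes 1 to 22 the lists held 5453 to 14849 SMARCA4, 9489 to 23364 SMARCC1 and 30991 to 90766 H3K27ac peaks, the last being Empty replicate 2. Relative depth, read from the background that the peak statistics imply, was 1.19 fragments per kb for SMARCA4 in CBR against 1.53 in WT and 1.23 and 1.95 in the Empty replicates. For SMARCC1 it was 2.87 in CBR, 3.28 in WT and 2.10 and 2.45 in Empty. By this estimate the SMARCA4 library of CBR was the shallowest of these 4. Peak names of CBR, WT, DBDmut, delIDR1 and Empty replicate 1 began with the same stamp, while DDX4 and Empty replicate 2 each had another, and the labels do not say what a stamp marks.

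The number of CBR-only sites was set beside the number that the same rule gave in other libraries. Empty replicate 2 had 527 BAF sites that met no subunit peak of WT or of Empty replicate 1, which was 8.15% (7.51 to 8.84) of its 6468 BAF sites. Against those same 2 backgrounds CBR had 464 such sites, or 7.71% (7.06 to 8.41). Empty replicate 2, a second library of the control condition, thus gave as large a share of its own sites as CBR did. It also had another peak-name stamp than CBR, WT and Empty replicate 1, and the deepest SMARCA4 library at 1.95 fragments per kb. The part of stamp and depth in this share was not tested. Empty replicate 1 gave far fewer against WT and Empty replicate 2, 53 of 4101 (1.29%, 0.989 to 1.69). Against those backgrounds CBR had 469 of 6022 (7.79%), well above Empty replicate 1. The share thus also differed widely between the 2 control libraries. The SMARCA4 list of Empty replicate 1 was the shortest of all, with 5453 peaks.

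Other mutants were held to all 3 backgrounds, as CBR was. DBDmut had 478 sites of its own among 9670 (4.94%, 4.53 to 5.39), close to the CBR share. The delIDR1 truncation had 63 of 4527 (1.39%, 1.09 to 1.78) and DDX4 had 21 of 4703 (0.447%, 0.292 to 0.682). WT, held to the 2 Empty replicates alone, had 4322 of 9585 (45.1%, 44.1 to 46.1), and this share is left out of the figure. All these intervals cover counting error only.

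**Figure D1:**
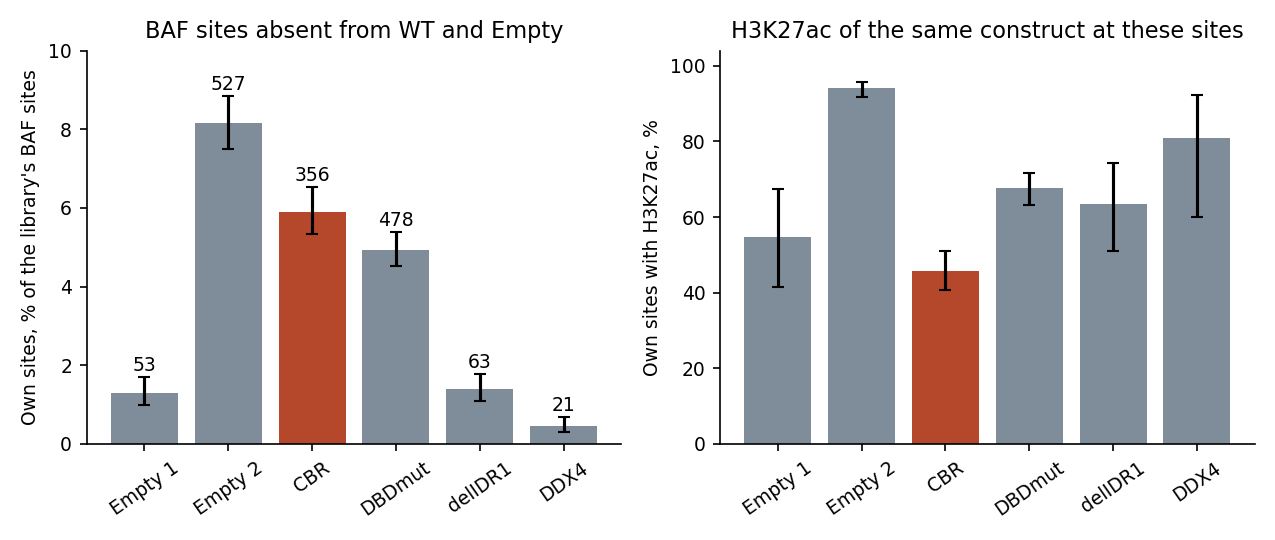
Left, sites found in 1 library and in neither WT nor Empty, as a percentage of that library's BAF sites, with the number of sites above each bar; right, the percentage of those sites with an H3K27ac peak of the same construct. Bars for the Empty replicates were held to WT and the other replicate, and those for the mutants to WT and both replicates. Error bars are Wilson 95% intervals. CBR (red) has 5.91% on the left and 45.8% on the right. Held like Empty replicate 2 to WT and Empty replicate 1 alone, CBR has 7.71% (7.06 to 8.41) against 8.15% (7.51 to 8.84).

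CBR-only sites were weaker and shorter than other CBR BAF sites. The fold enrichment in the deposited lists, the authors' value for a peak's summit over its local background, had a median of 6.25 for SMARCA4 at CBR-only sites and 8.28 at the other 5666 CBR BAF sites. For SMARCC1 the medians were 6.99 and 8.35. Their SMARCA4 folds ran from 3.57 to 23.4, and 61 of the 356 were above the median of the other sites, as were 86 for SMARCC1. These strengths belong to the lists that chose the sites and are given as a description.

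In fragments, recovered from the fold and the p-value, the median SMARCA4 pileup at a CBR-only summit was 7 over a background of 0.244, and the median SMARCC1 pileup was 10 over 0.536. Other CBR BAF sites had medians of 13 and 17. At 92 of the CBR-only sites (25.8%) the SMARCA4 call rested on at most 5 fragments, against 4.28% of the other sites. The lowest SMARCA4 pileup among them was 3 fragments, also the lowest in the whole CBR SMARCA4 list. The lowest in the other SMARCA4 lists was 3 in DBDmut, 4 in WT, Empty replicate 1, delIDR1 and DDX4, and 5 in Empty replicate 2. A SMARCA4 call in CBR could thus rest on fewer fragments than a call in WT or Empty. The part of this floor in the number of CBR-only sites was not tested.

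The median length of the SMARCA4 peak was 128 bp, with 296 of 356 under 200 bp, and the shortest peak of the CBR list was 91 bp. Across all CBR BAF sites the median was 183 bp. Sites that the same rule gave in other libraries were also shorter than all BAF sites of that library: 151 against 212 bp in DBDmut, 164 against 205 in delIDR1, 215 against 344 in DDX4, and 132 against 200 and 272 against 362 in the Empty replicates. Their median SMARCA4 folds were 5.78, 6.03, 5.03, 5.57 and 5.95, each in its own list, beside 6.25 for CBR. Both subunits peaked at nearly the same base: SMARCA4 and SMARCC1 summits lay a median of 36 bp apart, and within 100 bp at 86.2% of CBR-only sites and 85.5% of the others. Each CBR-only site met a different CBR SMARCC1 peak, and at 10 of them that SMARCC1 peak reached a WT or Empty subunit peak beyond the SMARCA4 peak.

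**Figure D2:**
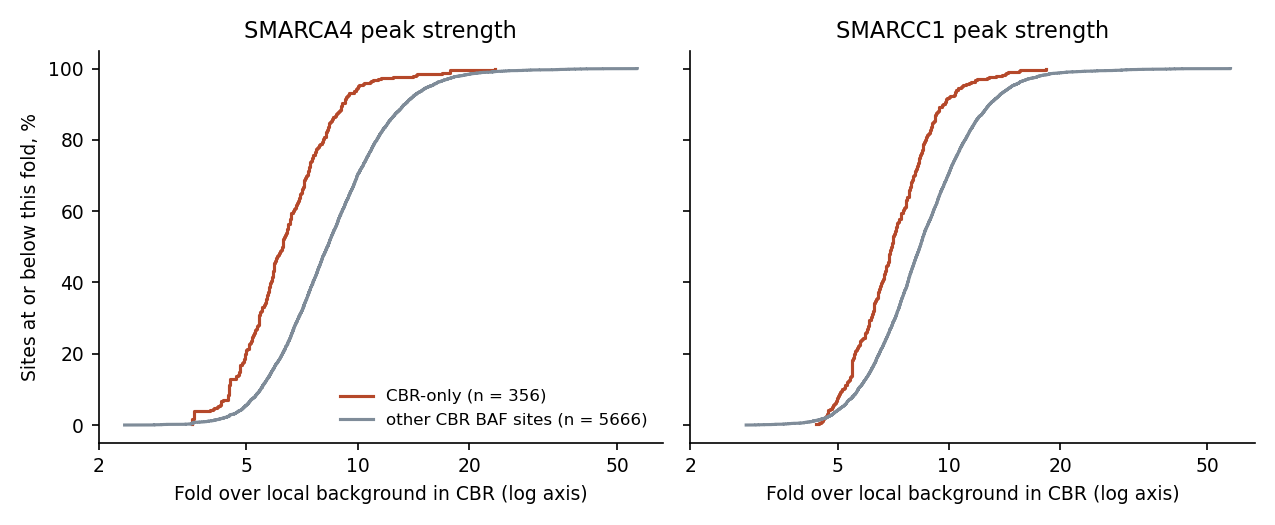
Cumulative percentage of sites (vertical axis) at or below a given fold over local background (horizontal log axis) in the CBR SMARCA4 list, left, and the CBR SMARCC1 list, right. The red curves of the 356 CBR-only sites lie left of the grey curves of the 5666 other CBR BAF sites for both subunits, with medians of 6.25 against 8.28 for SMARCA4 and 6.99 against 8.35 for SMARCC1.

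A few CBR-only sites stood far above this range. The strongest, chr7:158316339-158317187, was 849 bp long, at rank 73 among CBR SMARCA4 peaks and 96 among SMARCC1 peaks, with folds of 23.4 and 18.3 from pileups of 69 and 71 fragments. It had an H3K27ac peak in CBR, with a fold of 10.3, and in no other library. The nearest WT or Empty subunit peak was 1335 bp away, and delIDR1 had a SMARCA4 peak at the site with a fold of 6.27. So the site with the most evidence for both subunits in CBR also carried acetylation called in CBR alone.

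Next by summed rank were chr11:1467372-1467667, with SMARCA4 and SMARCC1 folds of 17.7 and 14.4, and chr2:86268264-86268529, with 17.7 and 12.7. The chromosome 11 site had H3K27ac in all 7 libraries, with folds of 12.3 in CBR, 7.19 and 8.22 in Empty, 4.59 in WT, 5.44 in DBDmut, 8.86 in delIDR1 and 6.92 in DDX4. Folds from different lists are not on a common scale, so only presence is compared. At the chromosome 2 site H3K27ac was present in CBR, WT and Empty replicate 2, and both subunits were also called in delIDR1.

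Then came chr1:227975797-227975917, with folds of 14.1 and 15.5 and H3K27ac in CBR and Empty replicate 2. It was followed by chr10:134588387-134588666, with folds of 17.7 and 14.2 and H3K27ac in CBR only. At chr16:85350126-85350240, with folds of 11.5 and 13.4, CBR and both Empty replicates had the mark while WT and the other 3 mutants did not. Only 6 CBR-only sites ranked among the 500 strongest CBR SMARCA4 peaks and 2 among the 500 strongest SMARCC1 peaks.

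Among the 20 strongest CBR-only sites, H3K27ac was called at 16 in CBR, 10 and 14 in the Empty replicates, 8 in WT and in delIDR1, 7 in DDX4 and 6 in DBDmut, while the share over all CBR BAF sites was 77.3% to 87.0% in each library. The CBR count was near the 82.2% of all CBR BAF sites with the mark in CBR. Their SMARCA4 folds ran from 7.40 to 23.4 and their ranks from 73 to 4056. The mark was in all 7 libraries at 6 of them and in none at 3. At 12 of the 20 another mutant had at least a single subunit, as did 92.2% of all CBR BAF sites.

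CBR-only sites were next read for neighbours among themselves. Joined at a distance often used to stitch neighbouring enhancers, they formed a single run, a pair of sites spanning 3.51 kb at chr3:82035153-82038665. The other 354 had no CBR-only site within that distance. Runs were not counted for other CBR BAF sites, so these counts have no background and do not show scatter as a trait of CBR-only sites. Other CBR BAF sites could be near: the nearest lay 93 bp away at the least, with a first quartile of 25276 bp and a median of 86757 bp. Widening the distance to 100 kb, chosen after the values were seen, added a neighbour at chr3:82002350-82002449 and gave no other run of 3 or more. Their local SMARCA4 backgrounds of 0.465 to 0.853 were above the median of 0.244 for CBR-only sites. They were within the quartiles of the other CBR BAF sites, 0.366 to 0.936 with a median of 0.576.

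By chromosome, CBR-only sites made up from 1.82% of CBR BAF sites on chromosome 21 (1 site, Wilson interval 0.322 to 9.61) to 7.98% on chromosome 9 (19 sites, 5.17 to 12.1), against 5.91% overall. Chromosome 1 held the most, 39, and chromosome 7 followed with 36. All 22 intervals except that of chromosome 10 (3.12%, 1.71 to 5.66) contained the overall share.

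No WT or Empty subunit peak touched the CBR-only sites, and the gap to the nearest such peak was measured. The median gap was 11378 bp, with 47 sites (13.2%) within 1 kb and 167 (46.9%) within 10 kb. This gap was not measured for other sites or positions, so the counts have no background share and do not show closeness as a trait of these sites. Just inside the rule were chr5:125499849-125500057, 1 bp from such a peak with a SMARCA4 fold of 5.96, and chr12:126665056-126665256, 4 bp away with a fold of 3.61 from 3 fragments. The 5 closest lay within 20 bp. Just outside it were chr5:108180636-108180734, chr6:144721535-144721705 and chr12:89783816-89783991, each excluded by an overlap of at most 9 bp, with SMARCA4 folds of 5.10, 6.59 and 5.15. Only 3 sites were excluded by 10 bp or less.

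H3K27ac was not used to choose the sites, and its 7 libraries were read next. The shares may still depend on the rule, since all CBR BAF sites include those with BAF in WT and Empty. Over all CBR BAF sites, H3K27ac in DBDmut was at 91.1% of those with both subunits there and 39.7% with neither. The shares in delIDR1 and DDX4 ran the same way. The part of the rule in the H3K27ac shares was not tested. In CBR cells 163 of the 356 CBR-only sites (45.8%, 40.7 to 51.0) met an H3K27ac peak, against 82.2% of all CBR BAF sites. The share was 62.2% with lists of equal length per antibody, 50.5% with a -log10 q of at least 5, and 232 of 464 sites without Empty replicate 2, so whether most of the sites had the mark turned with the setting. The same comparison within other libraries gave higher shares: 323 of the 478 sites of DBDmut's own had H3K27ac in DBDmut (67.6%, 63.3 to 71.6), and 496 of the 527 of Empty replicate 2 had it there (94.1%, 91.8 to 95.8). Empty replicate 1 had 29 of 53 (54.7%, 41.5 to 67.3). These shares come from lists of different length and were not tested against each other.

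With the empty vector, the mark was called at 138 CBR-only sites in Empty replicate 1 (38.8%, 33.8 to 43.9), where the share over all CBR BAF sites was 81.8%. In Empty replicate 2 it was called at 180 (50.6%, 45.4 to 55.7), against 87.0% of all CBR BAF sites. Neither control library had a BAF subunit peak at any of these sites, by the rule. CBR lay between the 2 control libraries here, and above both once lists were cut to equal length.

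The other 4 forms of ARID1A had fewer. WT had H3K27ac at 102 CBR-only sites (28.7%, 24.2 to 33.6; 82.5% of all CBR BAF sites). DBDmut had it at 96 (27%, 22.6 to 31.8; 80.0% of all), delIDR1 at 102 (28.7%, 24.2 to 33.6; 77.3% of all) and DDX4 at 105 (29.5%, 25 to 34.4; 81.4% of all). The CBR and Empty shares, 38.8% to 50.6%, lay above those of the other 4, 27% to 29.5%. The interval of Empty replicate 1 (33.8 to 43.9) still overlapped that of DDX4 (25 to 34.4). Over all CBR BAF sites the 7 shares ran from 77.3% to 87.0%. There DBDmut, delIDR1 and DDX4 were also below CBR (82.2%) and both Empty replicates (81.8% and 87.0%), while WT was above CBR and Empty replicate 1. No test was made, since each ARID1A form is 1 library.

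Among the libraries that share a peak-name stamp, the mark was at 45.8% in CBR and 38.8% in Empty replicate 1, against 28.7% in WT, 27% in DBDmut and 28.7% in delIDR1.

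List lengths and depth differed between these libraries, and their part in the split was not tested. Estimated H3K27ac depth was 14.5 fragments per kb in Empty replicate 2, 4.40 in Empty replicate 1 and 4.69 in CBR. It was 4.48 in WT, 4.65 in DBDmut, 3.59 in delIDR1 and 6.05 in DDX4. The H3K27ac list of Empty replicate 1, with 35429 peaks, was shorter than those of WT (49682), DBDmut (38153) and DDX4 (35538), and the CBR list had 40271. With the H3K27ac lists cut to an equal 30991 peaks, a setting chosen after seeing the data, the shares were 44.1% in CBR and 37.1% and 42.7% in Empty, against 24.2% in WT, 23.6% in DBDmut and 28.7% in delIDR1 and DDX4. When the subunit lists were also cut to equal length, the rule gave 225 sites and the gap narrowed, with 62.2% in CBR, 44.9% and 53.3% in Empty and 36.9% to 43.1% in the others.

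**Figure D3:**
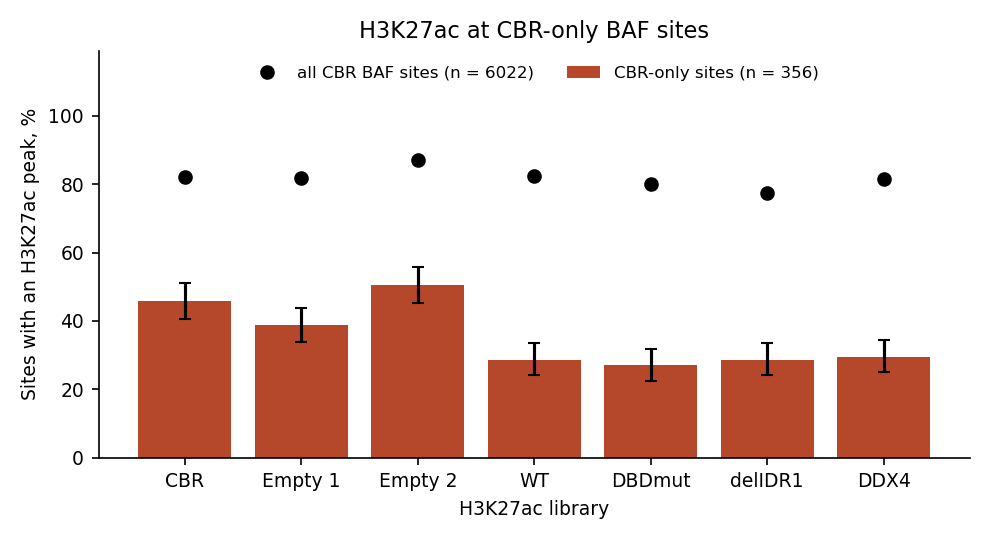
Percentage of sites with an H3K27ac peak (vertical axis) in each of the 7 H3K27ac libraries, for the 356 CBR-only sites (bars, Wilson 95% intervals) and for all 6022 CBR BAF sites (points). Bars of CBR and the Empty replicates reach 38.8% to 50.6% and those of WT, DBDmut, delIDR1 and DDX4 27% to 29.5%, while the points run from 77.3% to 87.0%.

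Site by site, the acetylation at CBR-only sites was shared between libraries less often than at CBR BAF sites in general. Of the 163 CBR-only sites with H3K27ac in CBR, 146 (89.6%, 83.9 to 93.4) had it in at least 1 Empty replicate, against 97.7% of all CBR BAF sites with the mark in CBR. By replicate it was 102 (62.6%; 91.9% of all) and 139 (85.3%; 96.9% of all). In WT 86 of the 163 had it (52.8%, 45.1 to 60.3), against 93.8%. DBDmut had it at 78 (47.9%; 91.2% of all), delIDR1 at 82 (50.3%; 88.6% of all) and DDX4 at 92 (56.4%; 93.5% of all). All 6 shares were below those over all CBR BAF sites, least so in Empty replicate 2, with no test made.

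The direction of the mismatch was uneven. CBR had the mark without WT at 77 CBR-only sites (21.6%, 17.7 to 26.2), against 5.08% of all CBR BAF sites, and WT had it without CBR at 16 (4.49%, 2.79 to 7.18), against 5.35%. Empty replicate 1 had it without WT at 56 (15.7%, 12.3 to 19.9), against 5.06%, and WT had it without Empty replicate 1 at 20 (5.62%, 3.67 to 8.52), against 5.70%. Sites acetylated in WT alone of such a pair were thus near the background share, and sites lacking the mark in WT alone were above it. The rule left out sites with a BAF subunit peak in WT or Empty, and its part in these shares was not tested.

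Both control libraries were acetylated at 111 CBR-only sites (31.2%, 26.6 to 36.2), against 79.4% of all CBR BAF sites. Of these 111, the mark was called at 95 in CBR (85.6%, 77.9 to 90.9), against 94.4% of all CBR BAF sites acetylated in both controls. It was called at 76 in WT (68.5%, 59.3 to 76.4; 95.4% of all), 75 in DBDmut (93.1%), 68 in delIDR1 (89.6%) and 78 in DDX4 (95.2%), the percentages again being those over all such CBR BAF sites. Neither control library had the mark at 149 CBR-only sites (41.9%, 36.8 to 47.0), against 10.5%. Among those 149, CBR had it at 17 (11.4%, 7.25 to 17.5; 18.2% of all such sites), WT at 6 (19.7%), DBDmut at 4 (18.7%), delIDR1 at 10 (19.7%) and DDX4 at 3 (11.4%).

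H3K27ac in CBR and in none of WT and Empty was found at 16 CBR-only sites (4.49%, 2.79 to 7.18), against 0.515% of all CBR BAF sites, or 31. The 2 strongest were the chromosome 7 and chromosome 10 sites described above. Next was chr5:23526979-23527528, 550 bp long, with SMARCA4 and SMARCC1 folds of 10.1 and 8.96 and an H3K27ac fold of 7.74. It also had a SMARCA4 peak in delIDR1 (6.78), a SMARCC1 peak in DDX4 (5.73) and an HA peak in DDX4 (7.02), without both subunits in either. The following ones were chr7:941180-941359, which had the mark in delIDR1 and DDX4 too, and chr5:126059397-126059598, which had it in CBR alone.

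At the other end, 122 CBR-only sites (34.3%, 29.5 to 39.3) had no H3K27ac peak in any of the 7 libraries, against 7.47% of all CBR BAF sites. The strongest of these was chr9:138882612-138882724, with SMARCA4 and SMARCC1 folds of 9.27 and 10.9 and no subunit peak in any other library. Also without the mark anywhere were chr15:49406478-49406589, with folds of 9.78 and 14.3, chr12:34148825-34149103, with 11.4 and 9.39, and chr17:25416385-25416476, with 6.24 and 14.0. A site on chromosome 2, chr2:121437936-121438064, had no H3K27ac but had SMARCA4 peaks without SMARCC1 in DBDmut, delIDR1 and DDX4, with folds of 6.49, 8.90 and 6.99.

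Few CBR-only sites were acetylated throughout. The mark was in all 7 libraries at 41 (11.5%, 8.6 to 15.3), against 66.0% of all CBR BAF sites. One of them, chr14:23764339-23764429, had H3K27ac folds of 13.5 in CBR, 14.2 and 11.7 in Empty, 12.6 in WT, 9.51 in DBDmut, 9.71 in delIDR1 and 12.7 in DDX4. Between the extremes, 50 sites had the mark in 1 library, 12 of them in CBR, 21 in Empty replicate 2 and 12 in Empty replicate 1.

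**Figure D4:**
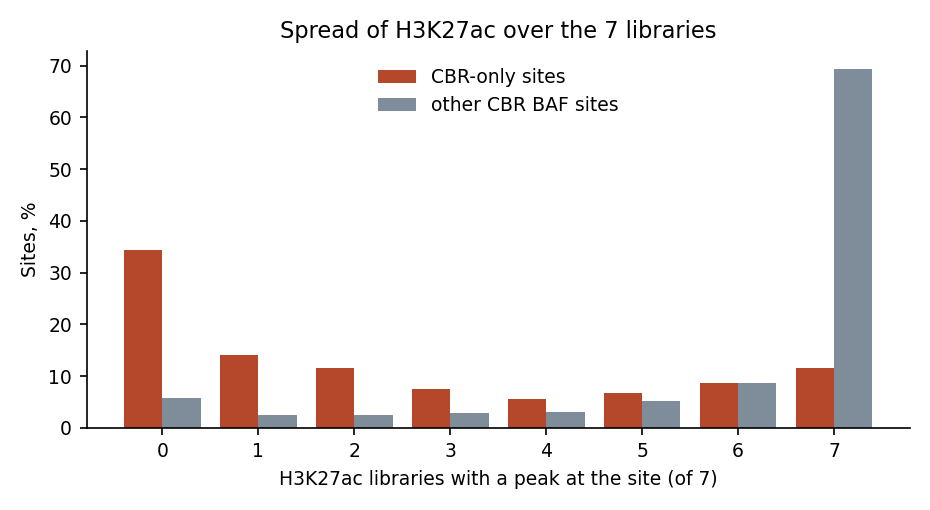
Percentage of sites (vertical axis) by the number of H3K27ac libraries, 0 to 7, with a peak at the site. CBR-only sites (red) are most often at 0 libraries, 34.3%, and the other CBR BAF sites (grey) at 7 libraries, 69.4%.

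Where the mark was present, its peaks were narrow. Median H3K27ac peak length at CBR-only sites was 278 bp in CBR, 191 and 342 bp in the Empty replicates and 262 bp in WT, against 456, 393, 861 and 590 bp at the other CBR BAF sites. In the CBR list the median H3K27ac fold was 7.63 at CBR-only sites, 8.38 at the other sites and 5.34 over the whole list. In the WT list the 3 values were 6.45, 8.62 and 5.80.

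Acetylation was also read within ranges of BAF strength, since CBR-only sites were weak. The CBR SMARCA4 values used for the ranges are among those that chose the sites. Among the 25% of CBR BAF sites of lowest SMARCA4 -log10 q, under 6.22, 201 were CBR-only and 1299 were not. H3K27ac was present in CBR at 37.8% of the former and 74.0% of the latter. In the next 2 ranges CBR-only sites had it at 54.2% and 54.2%, against 85.5% and 87.5%, and in the highest range at 81.8% of 11 sites, against 89.7%. The last range is open upward, with CBR-only sites reaching a -log10 q of 74.7 and other sites 1495, so its members are not alike in strength. The part of BAF strength in the H3K27ac shares was not tested. In WT the CBR-only shares were 26.4%, 37.5%, 22.9% and 18.2% from the weakest to the strongest range.

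Presence of BAF in the remaining mutants was read last, from libraries that the rule did not use. DBDmut had both subunits at 21 CBR-only sites (5.90%, 3.89 to 8.85), against 70.3% of all CBR BAF sites. The delIDR1 truncation had both at 7 (1.97%, 0.956 to 4.0; 47.6% of all) and DDX4 at 1 (0.281%, 0.0496 to 1.57; 51.8% of all). At 24 sites at least 1 of the 3 mutants had both (75.7% of all CBR BAF sites), and at 0 did all 3 (36.3% of all). A share of up to 1.07% is compatible with that count of 0 at the upper Wilson bound. With lists of equal length per antibody the order did not hold, on few sites and with overlapping intervals. Of 225 sites, both subunits were at 5 in DBDmut (2.22%, 0.953 to 5.10), 9 in delIDR1 (4.0%, 2.12 to 7.43) and 5 in DDX4 (2.22%, 0.953 to 5.10). Without Empty replicate 2 the DDX4 share was 1.94%. The low shares are partly set by the rule, since all CBR BAF sites include those that WT and Empty shared.

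Each subunit was also counted with or without the other, so the next counts include the sites with both and cannot be lower. SMARCA4 was called at 49 CBR-only sites in DBDmut (13.8%; 74.5% of all CBR BAF sites), 32 in delIDR1 (8.99%; 55.3%) and 9 in DDX4 (2.53%; 60.2%). SMARCC1 was called at 72 in DBDmut (20.2%; 83.0%), 21 in delIDR1 (5.90%; 66.7%) and 36 in DDX4 (10.1%; 69.0%). DBDmut and DDX4 had SMARCC1 more often than SMARCA4, and delIDR1 the reverse. Either subunit was present at 100 sites in DBDmut (28.1%; 87.2%), 46 in delIDR1 (12.9%; 74.4%) and 44 in DDX4 (12.4%; 77.4%).

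Taking the 3 mutants together, 142 CBR-only sites (39.9%, 34.9 to 45.1) had at least a single subunit in 1 of them, against 92.2% of all CBR BAF sites. The other 214 (60.1%, 54.9 to 65.1; 7.75% of all) had no subunit peak in any library but CBR. H3K27ac in CBR was present at 95 of those 214 (44.4%, 37.9 to 51.1; 49.5% of all CBR BAF sites without a subunit in these mutants) and at 68 of the 142 (47.9%, 39.8 to 56.1; 85.0% of all with one). The HA library of DDX4 had a peak at 6 CBR-only sites (1.69%, 0.775 to 3.63), against 38.2% of all CBR BAF sites.

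**Figure D5:**
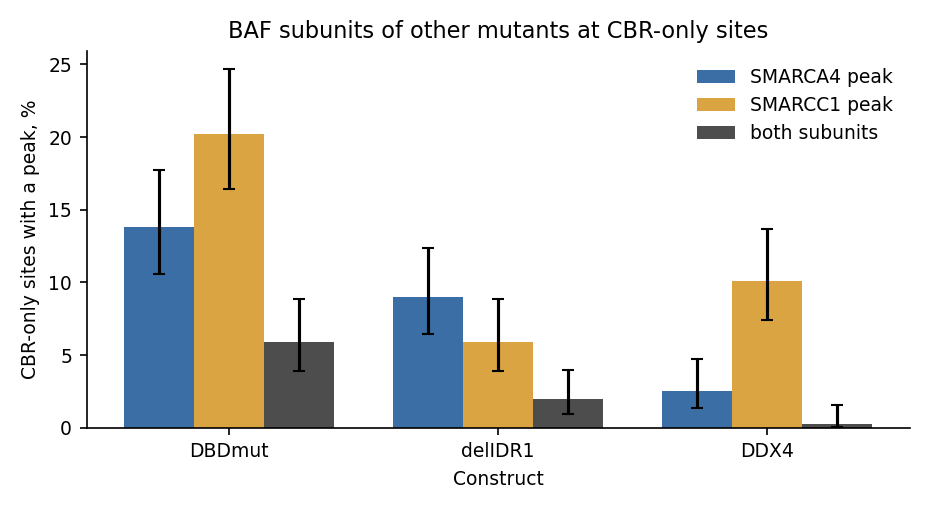
Percentage of the 356 CBR-only sites (vertical axis) with a SMARCA4 peak, a SMARCC1 peak or both in DBDmut, delIDR1 and DDX4, with Wilson 95% intervals. Single subunits reach 20.2% (SMARCC1 in DBDmut), and both together 5.90%, 1.97% and 0.281%.

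DBDmut and delIDR1 both had the 2 subunits at 5 of the CBR-only sites (1.40%; 44.6% of all CBR BAF sites). The strongest was the chromosome 14 site at 23764339, where the SMARCC1 fold was 15.5 in CBR, and SMARCA4 and SMARCC1 folds were 10.4 and 10.2 in DBDmut and 9.80 and 9.17 in delIDR1. At chr14:106056677-106057375 they were 14.4 and 6.86 in CBR, 5.89 and 7.06 in DBDmut and 4.63 and 6.39 in delIDR1, with H3K27ac in CBR and both Empty replicates only. At chr7:15548137-15548294 and chr1:88419514-88419652 the mark was present in Empty, WT and the other mutants but not in CBR (at the former in 1 of 2 Empty replicates).

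DBDmut alone of the 3 had both subunits at chr7:32530627-32530755, with folds of 7.50 and 6.56 there and H3K27ac in all 7 libraries. It alone had both at chr2:232717113-232717220, with 7.36 and 8.93, where H3K27ac was called only in Empty replicate 2. The single site with both in DDX4 was chr3:82002350-82002449, with 6.43 and 5.72 there and 7.56 and 4.61 in CBR, and H3K27ac in every library but CBR.

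Within each mutant, acetylation was then set beside its own BAF calls at the CBR-only sites. For DBDmut the mark was present at 10 of the 21 sites with both subunits (47.6%, 28.3 to 67.6), at 18 of the 79 with a single one (22.8%, 14.9 to 33.2) and at 68 of the 256 with neither (26.6%, 21.5 to 32.3). Over all CBR BAF sites the same 3 shares were 91.1%, 64.4% and 39.7%. For delIDR1 it was at 4 of 7, 14 of 39 (35.9%) and 84 of 310 (27.1%), against 90.6%, 77.4% and 52.3%. For DDX4 it was at 1 of 1, 21 of 43 (48.8%, 34.6 to 63.2) and 83 of 312 (26.6%), against 96.2%, 79.0% and 680 of 1359. In each mutant the shares with a single subunit and with neither were lower at CBR-only sites than over all CBR BAF sites, and no test was made.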

How the data were processed

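The 22 CUT&Tag libraries of AN3CA cells were assigned to construct and antibody by title. Per the labels' protocols, a commercial kit was used. The submitters' processing notes name hg19 and bcl2fastq without a version. Which aligner, duplicate handling and peak caller were used, and whether a control was, is not given in the sources used here. The authors deposited 1 narrowPeak list per library, so replicates were not pooled. Per peak the deposited lists give a fold enrichment (a ratio over local background), the -log10 of its p-value and q-value, with a lowest -log10 q near 2, a score equal to 10 times the -log10 q, and another value, the summit offset. These are the authors' values and were used within a list only.

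Peaks sharing 1 bp counted as overlapping. A fold was read as (pileup + 1) / (background + 1) and the p-value as a Poisson tail. Peaks of the most extreme p-values were left out of this step. Among the peaks used, it returned whole pileups within 0.001 in -log10 p in 99.96% or more of each list. SMARCA4 pileups were available at 5651 of the 5666 other CBR BAF sites and at all 356 CBR-only sites. Depth in fragments per kb is the lowest background divided by the shortest peak length and is an estimate. Total fragment counts are unknown. Code was tested on simulated data. Wilson intervals cover counting error only. No test between constructs was made, since each mutant is 1 library.

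Sites named in the text were the 20 CBR-only sites whose ranks by -log10 q summed lowest over both CBR lists; the 5 such sites with H3K27ac in CBR and not in WT or Empty, with none in any library, and with both subunits in each mutant; runs of neighbouring sites; and sites at the edge of the rule. The sites and these choices were made with earlier results of these data known. No hg19 genome or annotation was used here, so sites are given by position without gene or sequence, and the motif search and nearest-gene comparison planned were not done. Computations used Python 3.11.15, numpy 2.4.6, scipy 1.17.1, pandas 2.3.3 and matplotlib 3.10.9.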

Additional observations from a re-analysis of the deposited data

How the results depend on the processing

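Of 106 values recomputed under other settings, 82 stayed within the main value's interval, or within 1.5 times the main count, and 24 did not. The number of CBR-only sites, 356, fell to 218 with a -log10 q of at least 5 and to 225 with lists of equal length per antibody. It was 353 to 383 with an overlap of 50% of the shorter peak, SMARCC1 peaks as the sites, all sequences or summits within 250 bp, and 309 with no WT or Empty peak within 1 kb. Without Empty replicate 1 or 2 it was 469 or 464.

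H3K27ac shares with lists of equal length were 62.2% in CBR, 44.9% in Empty replicate 1, 36.9% in WT and DBDmut, 43.1% in delIDR1 and 42.2% in DDX4. With the H3K27ac lists alone shortened, chosen after seeing the data, WT had 24.2% and Empty replicate 2 had 42.7%. Empty replicate 2 had 56.4% at a -log10 q of at least 5 and 44.6% with summits within 250 bp. Leaving out an Empty replicate gave 40.3% to 44.0% in Empty replicate 1, 51.8% to 58.4% in Empty replicate 2, 29.2% to 34.3% in WT, 27.5% to 31.2% in DBDmut, 27.1% to 33.0% in delIDR1 and 30.3% to 34.7% in DDX4. In all 10 other settings that gave H3K27ac shares, the lowest of CBR and Empty was above the highest of WT, DBDmut, delIDR1 and DDX4. The gap was narrowest with lists of equal length, at 44.9% (38.5 to 51.4) in Empty replicate 1 against 43.1% (36.8 to 49.6) in delIDR1. Those intervals overlap. The grouping follows the split seen in the main shares, and the settings reuse the same 7 libraries, so they are not independent of each other.

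Both subunits with lists of equal length were at 2.22% in DBDmut and in DDX4 and 4.0% in delIDR1, so the reported order did not hold. These are 5, 5 and 9 of 225 sites, with overlapping intervals. DDX4 had 0% at a -log10 q of at least 5 and with no WT or Empty peak within 1 kb. With either subunit in place of both, the shares were 28.1% in DBDmut, 12.9% in delIDR1 and 12.4% in DDX4. Leaving out an Empty replicate gave 7.04% to 7.76%, 2.16% to 2.99% and 0.213% to 1.94%. The cause of these moves was not tested. No paired analysis was possible because replicate numbers exist only for Empty. Calls at CBR-only sites rested on few fragments, which limits what lists of this depth can show.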
